A study of Cavia porcellus with 9 samples.

Results

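The comparison described here is between retinas of guinea pigs reared under green light and retinas of guinea pigs reared under blue light, in 6 of the 9 libraries of the series, chosen by the light named in each library's label. Every gene with enough reads entered it, 15469 of 19962 in the table. All animals were male tri-color guinea pigs of the Dunkin-Hartley strain, obtained at an age of 2 weeks, kept on a 12:12 light cycle for 8 weeks under 1 light, and labelled as 12 weeks old at sampling. The number in each title was taken as the animal's: 11 (libraries 1 and 2, both od) and 16 (library 3, os) in green. The 3 blue libraries carried 2R-23 (library 1, od) and 32 (libraries 2 and 3, od and os). The 3 white libraries, the reference light, carried 6 (libraries 1 and 2) and R-23 (library 3). The labels do not say whether libraries 1 and 2 of green are 1 eye, nor whether 2R-23 and R-23 name related animals. Each group therefore stood on 2 animal numbers, and p-values measure the spread between libraries, part of which is the spread between samples of 1 animal. The titles of green library 1 and white library 3 end in -B, and no blue title does. The labels do not explain this suffix.

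The eye bends short wavelengths more strongly than long ones, so blue light comes to focus in front of green light. The retina reads the sign of defocus and passes signals through the pigment epithelium and choroid that speed or slow the growth of the eye wall. In guinea pigs, rearing in light of longer wavelength is known to give a longer, more myopic eye, and rearing in blue light a shorter, more hyperopic one. Guinea pigs carry rods, short-wavelength cones and middle-wavelength cones. The series title names bidirectional regulation of refraction by wavelength, so the question of this comparison is which retinal genes stand at opposite levels under the 2 lights, and where the white libraries lie between them.

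Libraries held 62155041 to 74979806 counts, with at least 1 count for 15871 to 16145 genes. The labelled tissue was checked against markers of its cells. All 17 rod markers and all 14 cone markers present in the table were tested. Gfap, an astrocyte filament gene, stayed between 0.0542 and 0.2996 CPM in the green and blue libraries. Another astrocyte marker, S100b, had 44.3 to 91.4 CPM there. Of 12 blood cell markers 7 were in the table and 1 could be tested. Pigment epithelium, the layer behind the retina, was carried over unevenly. The summed level of its 21 tested markers was 467, 1007 and 443 CPM in the green libraries, 772, 824 and 1000.0 CPM in the blue ones and 589, 1039 and 521 CPM in the white ones. Lens markers were higher in green for 17 of 20 (median 0.22, but -0.03 without blue library 2), and the crystallin gene Crybb3 had 4.39, 4.24 and 5.29 CPM in the green libraries and 2.497, 3.15 and 3.71 CPM in the blue ones. In whole retina, fewer cells of a type and less RNA per cell cannot be told apart.

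No gene passed an adjusted p of 0.05 in edgeR (0 of 15469, 0%), and the smallest adjusted p was 0.333. The DESeq2 Wald test, an alternative, gave 48 calls, of which 35 were higher in green, and limma voom gave 0. At an unadjusted p under 0.05, 1110 genes differed (7.18% of those tested), 636 higher in green (4.11%) and 474 lower (3.06%), where a uniform spread of p-values would give 773. The 3 green libraries did not overlap the 3 blue libraries for 2191 genes (14.2%), of which 1118 were higher in green (7.23%) and 1073 lower (6.94%). Of all tested genes 49.4% were higher in green at any p, so the tested genes as a whole were centred, with a median log2 difference (green minus blue) of -0.0025. Differences below are log2 values ± standard error from edgeR, and levels are CPM, each gene's counts as a share of its library's total scaled by TMM. Those of the 30 best-ranked named genes had edgeR adjusted p-values of 0.333 to 0.530, and DESeq2 called each of the 30. Of these, 26 were higher in green and 4 lower.

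**Figure D1:**
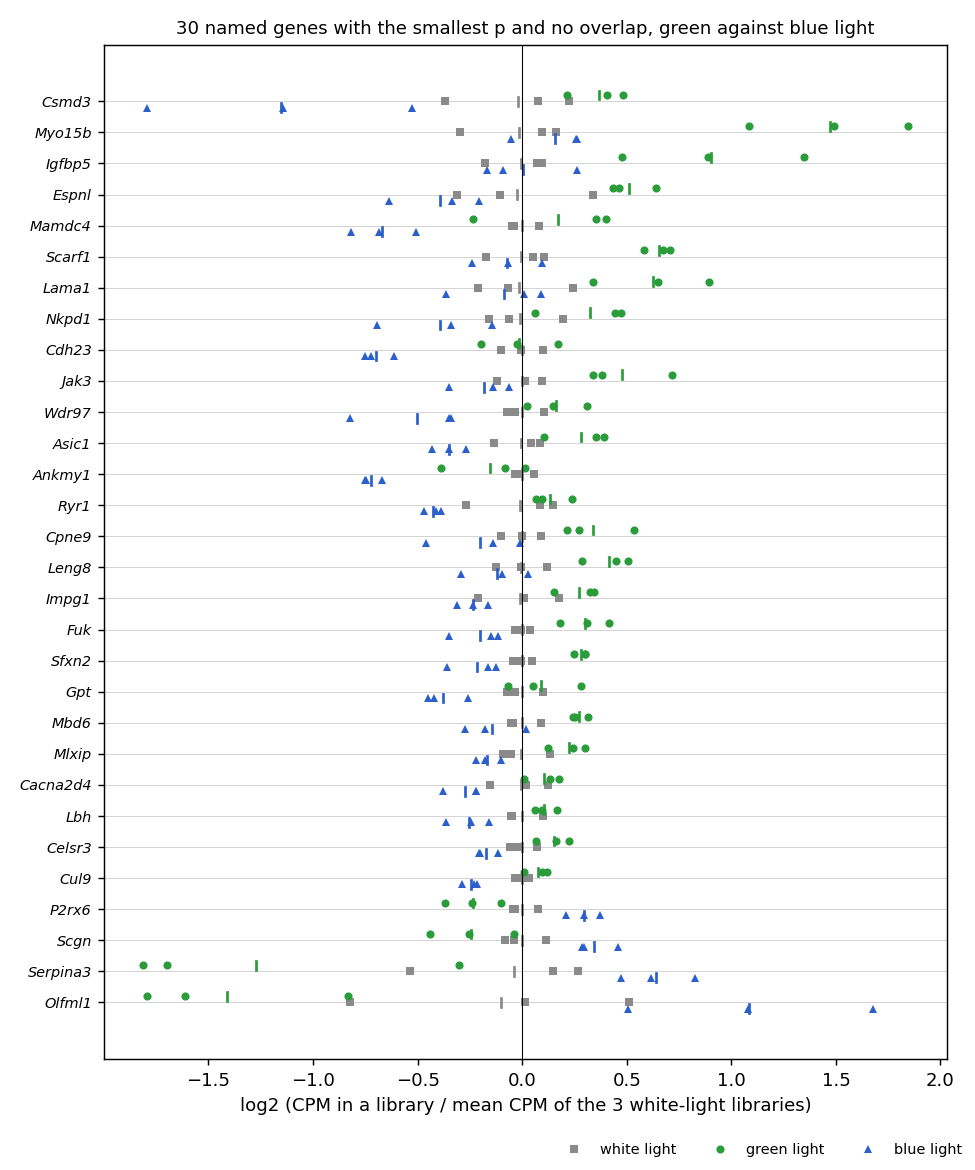
Level of each library relative to the mean of the 3 white libraries (log2 ratio of CPM, horizontal axis) for the 30 named genes with the smallest p (vertical axis), with green circles, blue triangles and grey squares for the green, blue and white libraries and ticks at group means. The 3 green and 3 blue points of each gene do not overlap, as the naming rule requires, and 26 of the 30 genes are higher in green.

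The list of Usher proteins and hair-bundle links was higher in green throughout. Usher proteins form the fibrous links, scaffolds and motors that hold sensory bundles together in the inner ear, and in photoreceptors they sit at the calyceal processes and the connecting cilium. The list also counts Myo15b, to which no such role is assigned here. All 16 tested members were higher in green, 5 of them at an unadjusted p under 0.05 (31.2% against 4.11% of all tested genes), with a median log2 difference of 0.34 against -0.0025 over all genes. As with every list here, the members were chosen with earlier results of these data known. This list holds the genes ranked 1 and 2 by p, Cdh23 and Myo15b, so its share cannot serve as a test. Cdh23, a cadherin of the tip link, had 143, 111 and 125 CPM in the green libraries, 76.99, 83.02 and 75.4 CPM in the blue ones and 118, 136 and 127 CPM in the white ones. Every blue library lay below every green and white library, while green and white overlapped. Its log2 difference was 0.69 ± 0.10 (edgeR adjusted p = 0.333), and without green library 2 it was called at an adjusted p of 0.0474. Over 21 alternatives the difference ran from 0.59 to 0.77 and the adjusted p reached 0.999. Pcdh15, the cadherin that pairs with Cdh23 in the link, had 186, 128 and 139 CPM in the green libraries, 98.98, 96.96 and 96.1 CPM in the blue ones and 141, 88.1 and 134 CPM in the white ones. Green and blue did not overlap, but white spanned both, and the difference was 0.64 ± 0.17. Myo15b, an unconventional myosin, stood apart in the other group: it had 13.3, 17.1 and 10.1 CPM in the green libraries, 4.57, 5.68 and 5.69 CPM in the blue ones and 5.07, 3.86 and 5.31 CPM in the white ones, so green was high and blue and white overlapped. Its difference was 1.34 ± 0.21 (edgeR adjusted p = 0.333).

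Adgrv1, a very large adhesion receptor, had 429, 547 and 476 CPM in the green libraries and 385, 384 and 358 CPM in the blue ones, a difference of 0.37 ± 0.13. Scaffold and motor genes of the same list had differences smaller than their errors: Whrn was at 0.09 ± 0.23, Ush1c at 0.12 ± 0.17, Myo7a at 0.12 ± 0.18 and Cib2 at 0.02 ± 0.12. Espnl, an espin-like actin bundler of hair cells that is outside the list, had 6.13, 6.27 and 7.08 CPM in the green libraries and 3.93, 3.59 and 2.92 CPM in the blue ones, a difference of 0.90 ± 0.20. The mean level of the list, given per library as the mean of its members' log2 distances from their own means, was 0.21, 0.16 and 0.27 in the green libraries, -0.14, -0.06 and -0.20 in the blue libraries and -0.12, -0.17 and 0.05 in the white libraries. All 3 green values lay above all blue and white values, and the blue and white ranges overlapped. Across the 59 lists, green and blue levels did not overlap for 11, with 6 higher in green and 5 lower. The levels overlapped for the remaining lists, among them ganglion cells, GABA and glycine transmission, collagens, hypoxia and angiogenesis, and Müller glia. Without green library 2 the count of 5 became 3 and 14 of 16 were higher, and without blue library 3 it became 3 as well, with 15 of 16 higher.

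In the interphotoreceptor matrix, the gel between outer segments and pigment epithelium, 9 of 12 tested members were higher in green, 3 at an unadjusted p under 0.05 (25% against 4.11% of all genes) and 0 lower at that level (median 0.13). Impg1, a matrix proteoglycan, had 124, 126 and 110.2 CPM in the green libraries and 79.8, 84.3 and 88.5 CPM in the blue ones, with no overlap and a difference of 0.51 ± 0.10. Its relative Impg2 had 273, 264 and 231 CPM in the green libraries and 232, 194 and 208 CPM in the blue ones (0.27 ± 0.12), where green library 3 fell just below blue library 1. Hemicentin 1 (Hmcn1), a large matrix protein, had 3.03, 1.73 and 2.47 CPM in the green libraries and 0.744, 1.6 and 0.9096 CPM in the blue ones (1.15 ± 0.33). At the ribbon synapse, by which photoreceptors and bipolar cells release glutamate, 19 of 23 tested members were higher in green, 4 at an unadjusted p under 0.05 (17.4% against 4.11%), with a median of 0.14. Without blue library 2 or 3 that count was 2, and without green library 2 the median was 0.07. Cacna1f, the pore of the photoreceptor calcium channel, had 674, 786 and 698 CPM in the green libraries, 588, 589 and 548 CPM in the blue ones and 551, 518 and 605 CPM in the white ones, with green alone above the others (0.32 ± 0.08). Its auxiliary subunit Cacna2d4 had 435, 448 and 398 CPM in the green libraries, 341, 340.3 and 305 CPM in the blue ones and 431, 357 and 401 CPM in the white ones, with blue alone below the others (0.38 ± 0.09, edgeR adjusted p = 0.5296). The channel's calcium sensor Cabp4 had 242, 245 and 237 CPM in the green libraries and 227, 189 and 185 CPM in the blue ones (0.27 ± 0.10). The pore, the auxiliary subunit and the calcium sensor were thus all higher in green than in blue, with the white libraries placed differently for each.

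Among markers of rods, 9 of 17 were higher in green (median 0.07, but -0.01 without green library 3), and among those of cones 8 of 14 (median 0.07), close to the 49.4% of all genes. Both cone pigments overlapped between the groups. Short-wavelength cone opsin (Opn1sw) had 615, 611 and 698 CPM in the green libraries and 637, 616 and 541 CPM in the blue ones, a difference of 0.10 ± 0.08. Middle-wavelength opsin (Opn1mw) had 553, 643 and 673 CPM in the green libraries and 605, 641 and 707 CPM in the blue ones, a difference of -0.06 ± 0.10. The difference was -0.0027 ± 0.35 for melanopsin (Opn4), the pigment of light-sensing ganglion cells. Opn3, an opsin of many tissues, was low: green libraries had 1.58, 1.71 and 0.885 CPM and blue libraries 0.7997, 0.664 and 0.323 CPM. Its difference of 1.22 ± 0.50 had an edgeR adjusted p of 0.662. The exceptions within the 2 lists were Samd7, a rod gene-silencing factor, and Cngb3, the second subunit of the cone channel. Samd7 had 36.6, 32.7 and 31.7 CPM in the green libraries, 19.99, 22.4 and 24.6 CPM in the blue ones and 44.8, 30.8 and 31.3 CPM in the white ones, with blue low (0.59 ± 0.15). Cngb3 had 58.9, 49.1 and 51.3 CPM in the green libraries, 40.8, 25.5 and 36.6 CPM in the blue ones and 36.1, 25.02 and 33.6 CPM in the white ones, with green high (0.63 ± 0.18).

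**Figure D2:**
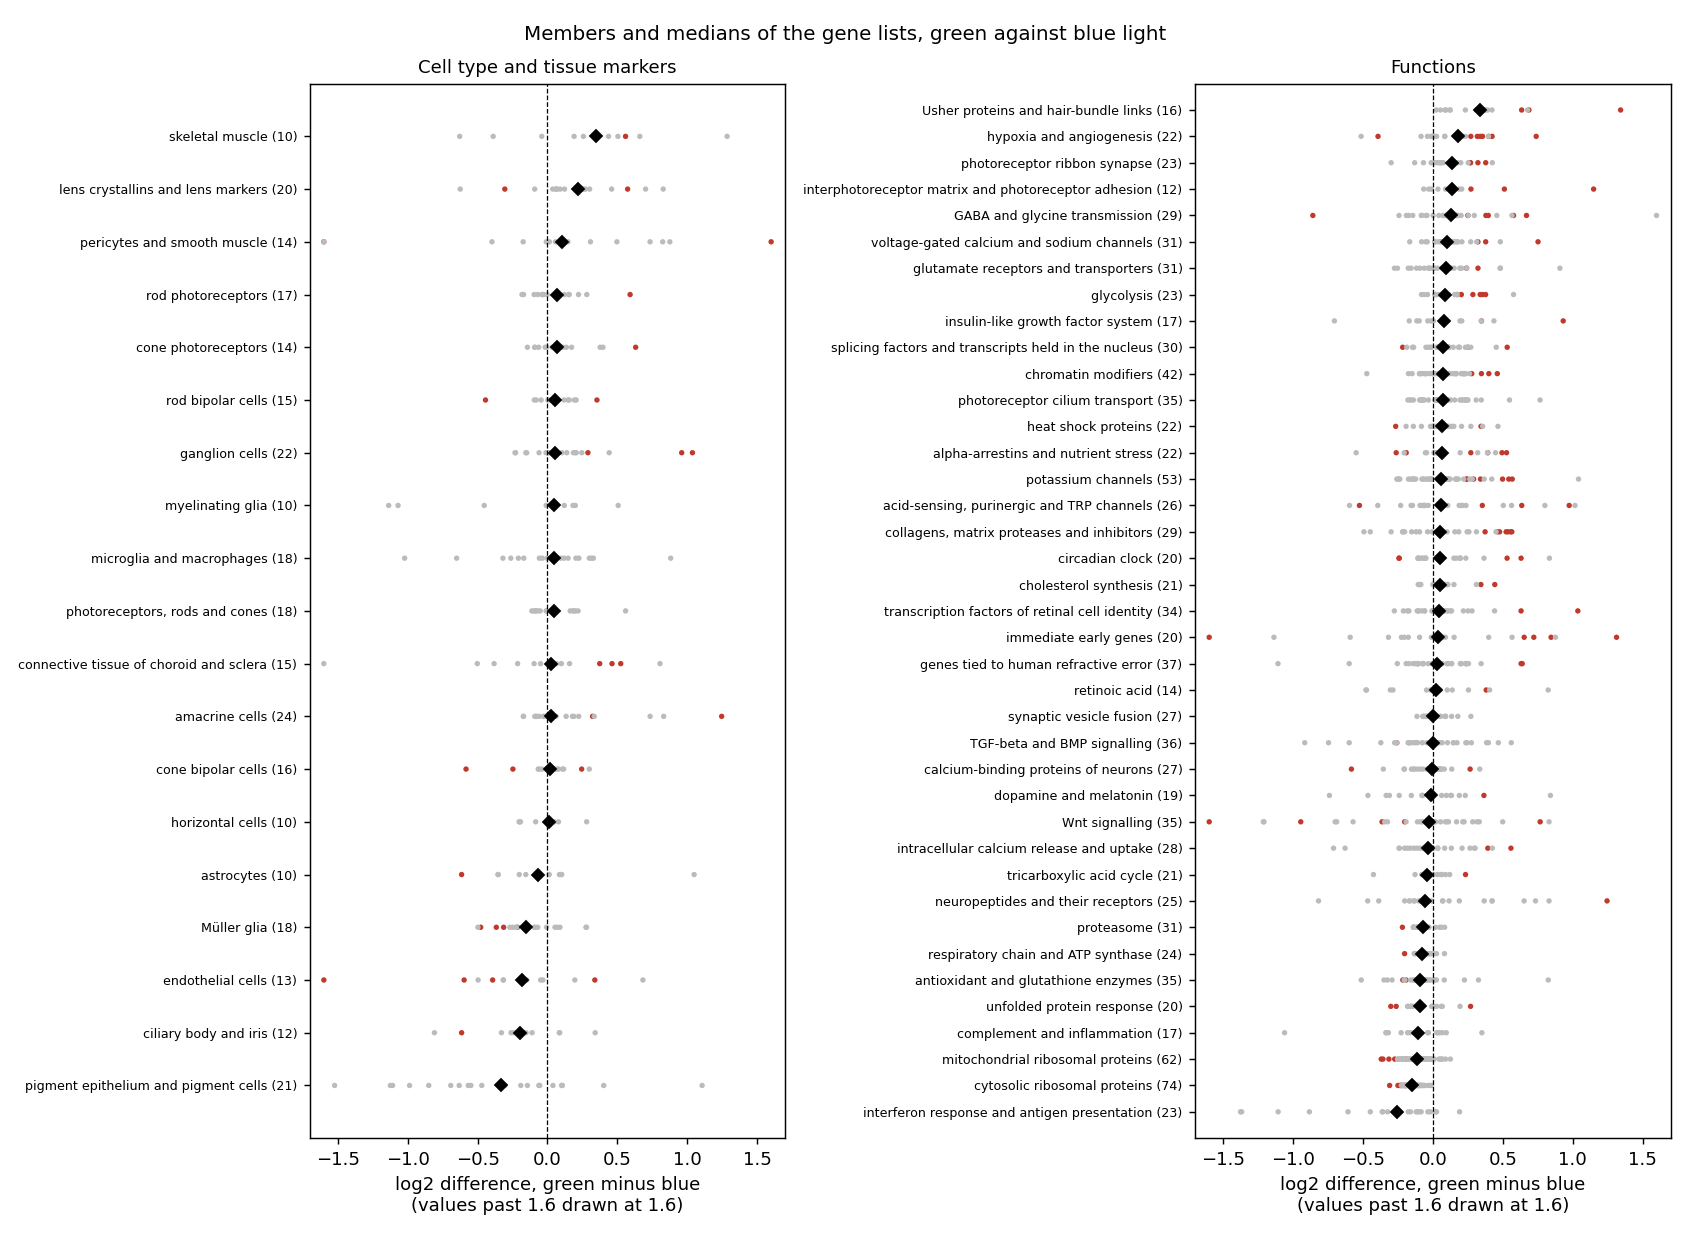
Log2 difference, green minus blue, of every tested member (points, red at an unadjusted p under 0.05 and grey otherwise) of each cell type and function list with more than 1 tested member, with the median as a diamond and the median of all genes as a dashed line. Points beyond the frame are drawn at its edge. The cytosolic ribosomal members all lie below 0 and the Usher members all lie above it.

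Of 31 tested voltage-gated calcium and sodium channel genes 27 were higher in green, 3 at an unadjusted p under 0.05 (9.68% against 4.11% of all genes) and 0 lower at that level. For potassium channels it was 34 of 53, 7 of them at that level (13.2%) and again 0 in the other direction. The 3 calcium and sodium channel genes were Cacna1f and Cacna2d4, both counted above in the ribbon synapse list, and Cacna1s. Cacna1s was low and overlapped, with 2.86, 2.70 and 5.31 CPM in the green libraries and 2.92, 1.88 and 1.64 CPM in the blue ones. Kcnip2, an auxiliary subunit of transient potassium channels, had 65.9, 65.03 and 67.5 CPM in the green libraries and 49.9, 55.2 and 51.6 CPM in the blue ones (0.34 ± 0.08). Kcna2, a delayed rectifier, had 77.4, 68.7 and 58.4 CPM in the green libraries and 46.5, 52.3 and 45.8 CPM in the blue ones (0.50 ± 0.16). Hcn3, a pacemaker channel, had 107, 97.5 and 96.7 CPM in the green libraries and 78.4, 88.7 and 78.7 CPM in the blue ones (0.29 ± 0.09). In all 3 the green and blue libraries did not overlap. The count of 7 potassium channel genes became 3 without blue library 1 and 3 with the level of pigment markers as a covariate. Ryr1, a calcium release channel of internal stores, had 44.3, 48.8 and 43.4 CPM in the green libraries, 31.1, 29.9 and 31.6 CPM in the blue ones and 44.05, 34.4 and 45.9 CPM in the white ones, with blue below both other lights (0.56 ± 0.11), and its relative Ryr3 had 50.4, 49.2 and 40.5 CPM in the green libraries and 37.96, 35.5 and 33.3 CPM in the blue ones (0.39 ± 0.16). Both belong to the list of intracellular calcium release and uptake, where 11 of 28 tested genes were higher in green and 17 lower. Its median was -0.04 and changed sign in 7 of 21 alternatives. Acid-sensing and purinergic channels went both ways. Asic1, a proton-gated sodium channel, had 27.5, 33.5 and 32.7 CPM in the green libraries, 21.2, 19.01 and 20.1 CPM in the blue ones and 26.4, 27.1 and 23.3 CPM in the white ones, fully ordered green, white, blue, with a difference of 0.64 ± 0.11 (edgeR adjusted p = 0.451). Asic3 had 33.5, 15.03 and 25.99 CPM in the green libraries and 14.7, 13.6 and 9.61 CPM in the blue ones (0.98 ± 0.26), and green library 2 nearly touched blue library 1. P2rx6, an ATP-gated channel, had the opposite full order, with 20.7, 17.2 and 18.8 CPM in the green libraries, 28.8, 25.7 and 27.3 CPM in the blue ones and 21.6, 23.4 and 21.6 CPM in the white ones and a difference of -0.53 ± 0.10 (edgeR adjusted p = 0.488).

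Bipolar cells carry photoreceptor signals inward, amacrine cells shape them with GABA and glycine, and ganglion cells send them to the brain. Medians lay between 0.01 and 0.06 for the rod bipolar, cone bipolar, horizontal, amacrine and ganglion cell lists. Of the ganglion cell markers 15 of 22 were higher in green, 3 at an unadjusted p under 0.05 (13.6% against 4.11%) and 5 without overlap (22.7% against 7.23%). The count of 3 was 1 without green library 2 or blue library 1, and 6 without green library 3. Of the rod bipolar markers 11 of 15 were higher, and the green and blue levels of that list did not overlap, though the nearest were only -0.00861 in green library 1 and -0.0087 in blue library 2. Trpm1, the cation channel of ON bipolar cells, had 145, 131 and 133 CPM in the green libraries and 108, 107 and 104 CPM in the blue ones (0.35 ± 0.10). Pcp2, a modulator of the G protein that gates it, had 116, 118 and 151 CPM in the green libraries and 129, 190.4 and 204 CPM in the blue ones (-0.44 ± 0.17), so 2 members of the rod bipolar list differed in opposite directions. Secretagogin (Scgn), a calcium-binding protein of cone bipolar cells, had 16.4, 21.7 and 18.7 CPM in the green libraries, 27.1, 27.3 and 30.6 CPM in the blue ones and 21.01, 24.1 and 21.7 CPM in the white ones, with blue high and a difference of -0.58 ± 0.12. Bhlhe22, a bipolar and amacrine transcription factor, had 45.6, 37.5 and 37.8 CPM in the green libraries and 48.4, 50.4 and 44.7 CPM in the blue ones (-0.25 ± 0.10). Vip, a peptide of a set of amacrine cells, had 5.41, 2.34 and 5.46 CPM in the green libraries and 1.63, 1.98 and 1.97 CPM in the blue ones (1.25 ± 0.40), and green library 2 was close to blue. Chat, the acetylcholine-making enzyme of starburst amacrine cells, had 15.2, 16.6 and 13.97 CPM in the green libraries and 11.1, 13.5 and 11.96 CPM in the blue ones (0.32 ± 0.14). Ebf1, a transcription factor of the inner retina, had 22.6, 10.02 and 19.4 CPM in the green libraries and 7.84, 8.83 and 8.71 CPM in the blue ones (1.04 ± 0.25), again with green library 2 near blue. Without that library the difference was 1.31, its highest over 21 alternatives (edgeR adjusted p = 0.0442), and with the pigment marker level as a covariate it was 0.58, its lowest (adjusted p = 0.999).

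In GABA and glycine transmission, 20 of 29 tested genes were higher in green, 6 at an unadjusted p under 0.05 (20.7% against 4.11%) and 1 lower at that level, with a median of 0.13. Gephyrin (Gphn), which anchors both receptor kinds, had 41.5, 41.8 and 38.2 CPM in the green libraries and 24.97, 32.1 and 35.2 CPM in the blue ones (0.40 ± 0.13). The glycine receptor subunit Glra4 had 10.6, 5.56 and 6.48 CPM in the green libraries and 4.26, 4.83 and 5.16 CPM in the blue ones (0.67 ± 0.22), with green library 1 above the other 2. The GABA-A subunit Gabrb2 had 15.1, 10.96 and 8.69 CPM in the green libraries and 7.8, 8.07 and 7.41 CPM in the blue ones (0.58 ± 0.24). Slc6a13, a GABA transporter also found in pigment epithelium and vessels, ran the other way with 3.13, 7.404 and 4.45 CPM in the green libraries and 9.58, 6.604 and 10.9 CPM in the blue ones (-0.86 ± 0.33). The count of members higher at that level dropped from 6 to 2 without green library 1, to 2 without blue library 1, to 3 without blue library 2 or 3 and to 1 with the pigment marker level as a covariate. Synaptic vesicle fusion genes were even, with 14 of 27 higher and 0 at an unadjusted p under 0.05 in either direction.

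Igfbp5, a secreted binder of insulin-like growth factors, had 351, 264 and 483 CPM in the green libraries, 228, 178 and 169 CPM in the blue ones and 168, 203 and 199 CPM in the white ones. Green lay above both other lights, which overlapped, and the difference from blue was 0.93 ± 0.19 (edgeR adjusted p = 0.488). Lama1, a laminin chain of the inner limiting membrane, had 128, 104 and 152 CPM in the green libraries, 63.7, 87.3 and 82.5 CPM in the blue ones and 70.7, 78.03 and 96.98 CPM in the white ones, again with green alone high (0.72 ± 0.16). Of 29 tested collagens, matrix proteases and inhibitors 18 were higher in green, 7 at an unadjusted p under 0.05 (24.1% against 4.11% of all genes) and 0 lower at that level, among them Col4a3 with 66.5, 51.5 and 44.8 CPM in the green libraries and 39.6, 38.3 and 34.4 CPM in the blue ones (0.54 ± 0.19) and Col6a2 with 7.13, 5.14 and 4.59 CPM in the green libraries and 3.89, 3.73 and 4.12 CPM in the blue ones (0.52 ± 0.19). That count of 7 became 1 without green library 1, 1 without blue library 3, 2 without blue library 2 and 0 with the pigment marker level as a covariate. Of the 7, Col6a2, Col1a1 and Col6a1 are also markers in the list of connective tissue of choroid and sclera. In that list 9 of 15 were higher in green, these 3 at an unadjusted p under 0.05 (20%), with a median of 0.03. Carryover of tissue behind the retina was not tested for these genes. Olfml1, an olfactomedin-like secreted protein, was low and higher in blue, with 0.372, 0.639 and 0.328 CPM in the green libraries, 1.61, 2.4 and 3.64 CPM in the blue ones and 1.15, 1.62 and 0.643 CPM in the white ones and a difference of -2.52 ± 0.44 (edgeR adjusted p = 0.451).

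Wif1, a Wnt-binding inhibitor, had 3.39, 2.34 and 2.72 CPM in the green libraries, 6.75, 4.77 and 4.77 CPM in the blue ones and 5.28, 6.04 and 3.92 CPM in the white ones, with green below both other lights (-0.95 ± 0.23). Sfrp2, a Wnt-binding decoy, had 285, 260.3 and 529.6 CPM in the green libraries and 184, 185 and 262 CPM in the blue ones (0.77 ± 0.24), where green library 3 was far above the other 2 and green library 2 lay just below blue library 3. Frzb, a related decoy, had 203, 179 and 174 CPM in the green libraries and 236, 244 and 235 CPM in the blue ones (-0.36 ± 0.15). Rspo1, which strengthens Wnt signals, was listed at 0 in 2 green libraries and had 0.281, 0.231 and 0.352 CPM in the blue ones. A count of 0 allows up to 0.0457 CPM in green and blue if 1 count is 1 read pair, which is not certain. Across the Wnt list 15 of 35 were higher and 20 lower (median -0.03), 4 of the 20 at an unadjusted p under 0.05 (11.4% against 3.06% of all genes), a count that was 2 without green library 3 and 7 without green library 2. On the list's level, green libraries stood at -0.09, -0.11 and -0.04 and blue libraries at 0.11, 0.07 and 0.10, with green below blue without overlap. TGF-beta and BMP signalling was centred, with 17 of 36 higher. Rarg, a retinoic acid receptor, had 36.8, 35.9 and 37.8 CPM in the green libraries and 31.3, 27.3 and 26.3 CPM in the blue ones (0.38 ± 0.09), while 7 of 14 retinoic acid genes were higher. In the dopamine and melatonin list, 8 of 19 were higher. Tyrosine hydroxylase (Th), the dopamine-making enzyme, had 30.5, 34.6 and 42.8 CPM in the green libraries and 22.3, 35.2 and 40.9 CPM in the blue ones (0.13 ± 0.20). Aanat, the timing enzyme of melatonin synthesis, had 114, 138 and 153 CPM in the green libraries and 117, 100.1 and 98 CPM in the blue ones (0.37 ± 0.13).

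Glycolysis genes were higher in green for 20 of 23 tested members, 6 at an unadjusted p under 0.05 (26.1% against 4.11% of all genes) and 0 lower at that level. Photoreceptors make much of their ATP and biomass by glycolysis, and export lactate to their neighbours. The sizes were small, with a median of 0.08. Hexokinase 2 (Hk2), the entry enzyme in photoreceptors, had 744, 726 and 689 CPM in the green libraries, 659, 568 and 543 CPM in the blue ones and 578, 590.2 and 628 CPM in the white ones (0.29 ± 0.08). The glucose transporter Slc2a1 had 881, 805 and 700.3 CPM in the green libraries, 682, 629 and 576 CPM in the blue ones and 536, 619 and 805 CPM in the white ones (0.34 ± 0.14), and the lactate exporter Slc16a3 had 277, 242 and 221 CPM in the green libraries and 194, 204 and 172 CPM in the blue ones (0.38 ± 0.16). Pfkfb3, which makes the activator of phosphofructokinase, had 249, 226 and 229.7 CPM in the green libraries and 207, 172 and 172 CPM in the blue ones (0.36 ± 0.14). No green library overlapped a blue one for any of these 4 genes. Pgk1 (0.20 ± 0.07) and the phosphofructokinase Pfkp (0.17 ± 0.07) were also higher in green at an unadjusted p under 0.05. For Pfkp the white libraries, at 552, 549 and 512 CPM, lay above green (497, 504 and 491) and blue (434, 467 and 422). On the mean level of the list, green libraries stood at 0.07, 0.09 and 0.08 and blue libraries at -0.05, -0.04 and -0.07, without overlap, but the white libraries ranged from -0.11 to 0.05. The count of 6 became 3 without green library 1, 3 without green library 2, 2 without blue library 3 and 2 with the pigment marker level as a covariate.

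The list of hypoxia and angiogenesis overlaps the glycolysis list in Slc2a1 and Pfkfb3. In it 16 of 22 were higher in green, 7 at an unadjusted p under 0.05 (31.8% against 4.11%) and 1 lower at that level (median 0.18). Vegfa, the main signal for vessel growth, had 207, 175 and 181 CPM in the green libraries, 172, 132 and 123 CPM in the blue ones and 137, 135 and 153 CPM in the white ones (0.40 ± 0.12). Egln3, an oxygen-sensing prolyl hydroxylase, had 33.1, 18.6 and 21.1 CPM in the green libraries and 18.5, 11.8 and 13.5 CPM in the blue ones (0.74 ± 0.27), with green library 1 above the rest. Flt1, a receptor for Vegfa, ran the other way, with 203, 249 and 218 CPM in the green libraries and 340.0, 326 and 214 CPM in the blue ones (-0.39 ± 0.16). The count of 7 fell to 3 without green library 1, 2 without blue library 2, 3 without blue library 3 and 2 with the pigment covariate. Of the endothelial markers themselves 3 of 13 were higher in green and 10 lower (median -0.18, but -0.03 without blue library 2), among them Plvap, a protein of vessel pores, with 7.72, 5.39 and 9.402 CPM in the green libraries and 14.9, 8.73 and 10.4 CPM in the blue ones (-0.60 ± 0.26). Among nutrient sensors, Mlxip, a glucose-responsive transcription factor, had 58.7, 66.5 and 63.9 CPM in the green libraries and 47.6, 50.2 and 46.2 CPM in the blue ones (0.39 ± 0.09), and Arrdc3, an arrestin-like gene of that response, had 102, 156 and 119.9 CPM in the green libraries and 97.3, 89.03 and 81.9 CPM in the blue ones (0.49 ± 0.19). In their list of alpha-arrestins and nutrient stress 16 of 22 were higher in green, 4 at an unadjusted p under 0.05 (18.2% against 4.11%). At that level 2 were lower (9.09% against 3.06%), among them Sesn2 (-0.26 ± 0.12). Gpt, alanine aminotransferase, had 87.9, 80.9 and 103 CPM in the green libraries and 63.4, 70.7 and 62.02 CPM in the blue ones (0.47 ± 0.10). Cholesterol synthesis genes were higher in green for 17 of 21, 2 at an unadjusted p under 0.05 (9.52% against 4.11%), but for 10 of 21 without blue library 1. One was Hmgcs1, an early enzyme of the pathway, with 79.9, 58.9 and 62.4 CPM in the green libraries and 52.5, 44.1 and 51.5 CPM in the blue ones (0.44 ± 0.14).

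**Figure D3:**
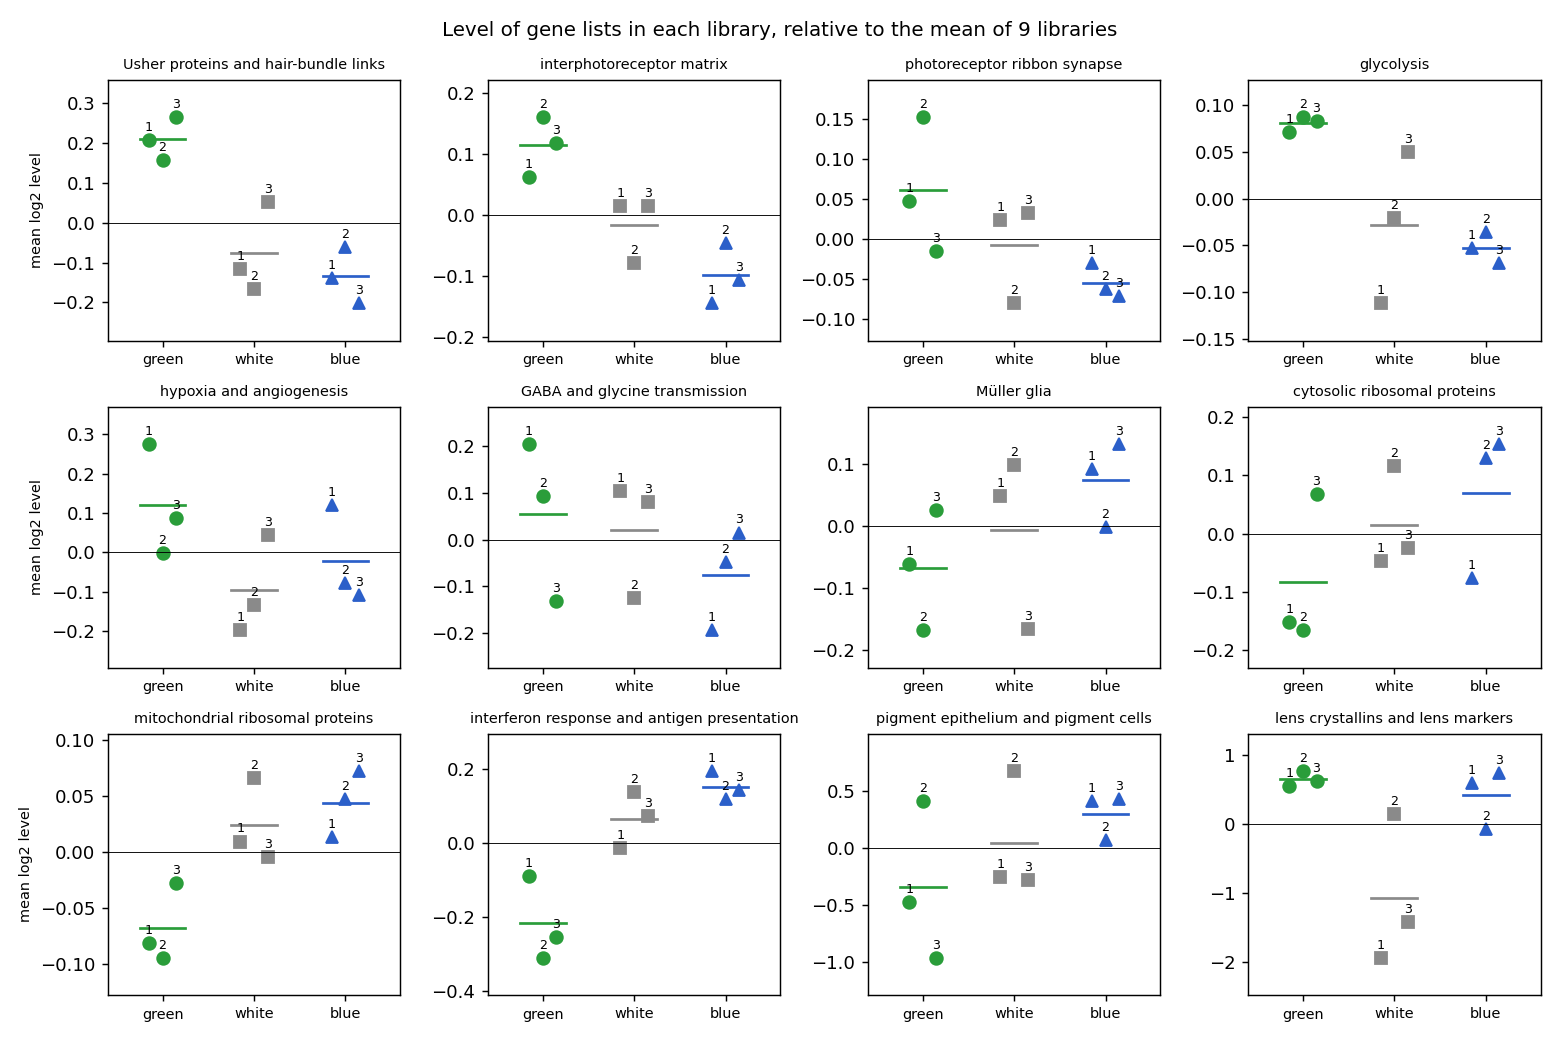
Mean level of selected gene lists in each library (vertical axis, mean log2 distance of the members from their own means over the 9 libraries), with 1 panel per list, the green, white and blue libraries side by side, library numbers at the points and a line at each group's mean. Green lies above blue without overlap for the Usher and glycolysis lists and below it for the mitochondrial ribosomal list, while 1 green library overlaps blue for the cytosolic ribosomal list.

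All 74 tested cytosolic ribosomal proteins were lower in green, with a median of -0.15, 7 of them at an unadjusted p under 0.05 (9.46% against 3.06% of all genes). Rpl35, of the large subunit, had 241, 249 and 263 CPM in the green libraries, 270.0, 346 and 317 CPM in the blue ones and 264, 310.1 and 294 CPM in the white ones (-0.31 ± 0.10). Ribosomal genes are abundant and vary together between libraries, and the list's level was -0.15, -0.17 and 0.07 in the green libraries, -0.08, 0.13 and 0.15 in the blue libraries and -0.05, 0.12 and -0.02 in the white libraries. Green library 3 lay within the blue range, and blue library 1 within the green one. Without green library 3 the count of 7 became 30 and without blue library 1 it became 33, while it was 0 without blue library 2, 1 without green library 2, 1 without blue library 3 and 3 without green library 1. With counts summed per animal number 4 of 74 were higher, and the median was -0.08.

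Mitochondrial ribosomal proteins were lower in green for 55 of 62, 5 at an unadjusted p under 0.05 (8.06%) and 12 without overlap (19.4% against 6.94% of all genes), with a median of -0.11. On the list's level, green libraries stood at -0.08, -0.09 and -0.03 and blue libraries at 0.01, 0.05 and 0.07, without overlap. Mrps12, of the small subunit, had 17.8, 20.1 and 18.9 CPM in the green libraries and 22.01, 25.2 and 23.3 CPM in the blue ones (-0.31 ± 0.10). The count of 5 became 0 with the pigment covariate, 1 without blue library 3, 2 without green library 2, 3 without green library 1, 3 without blue library 2 and 8 without blue library 1. Of the proteasome, which degrades tagged proteins, 27 of 31 genes were lower (median -0.07), including the lid subunit Psmd13 with 83.1, 84.98 and 84.5 CPM in the green libraries and 101, 92.3 and 100.4 CPM in the blue ones (-0.22 ± 0.08). Of the respiratory chain 21 of 24 were lower (median -0.08, but -0.008 without green library 1), including the complex I subunit Ndufb5 with 79.3, 81.99 and 87.7 CPM in the green libraries and 91.1, 94.2 and 101 CPM in the blue ones (-0.20 ± 0.08). Antioxidant and glutathione enzymes were lower for 28 of 35 (median -0.09). At an unadjusted p under 0.05 were 1 proteasome gene (3.23%), 1 respiratory chain gene (4.17%) and 2 antioxidant genes (5.71%), against 3.06% of all genes. The levels of the respiratory chain list overlapped, with green libraries at -0.14, -0.001 and 0.03 and blue libraries at -0.03, 0.04 and 0.08. Tricarboxylic acid cycle genes were lower for 14 of 21 (median -0.05, but 0.03 without green library 1), and none of those 14 reached that level.

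Markers of Müller glia and genes of the interferon response were mostly lower in green, while microglial markers were even. Müller glia span the retina, recycle transmitter and buffer potassium. Of 18 tested markers 13 were lower in green, 4 at an unadjusted p under 0.05 (22.2% against 3.06%), with a median of -0.16, but -0.07 without blue library 3. Apoe, the lipid carrier of retinal glia, had 597, 773 and 743 CPM in the green libraries, 909.7, 995 and 1037 CPM in the blue ones and 706, 962 and 855 CPM in the white ones (-0.48 ± 0.12). Clusterin (Clu), a secreted chaperone, had 1896, 2499.7 and 2063 CPM in the green libraries and 2609, 2835 and 2881 CPM in the blue ones (-0.37 ± 0.12). Both are also made by pigment epithelium, whose summed markers were higher in all 3 blue libraries than in green libraries 1 and 3. Over 21 alternatives, which include the pigment marker level as a covariate, the difference ran from -0.55 to -0.37 for Apoe. For Clu it ran from -0.49 to -0.22. The part of pigment epithelium in these differences was not tested. With the pigment covariate the count of 4 became 1. It was 2 without blue library 3. Glutamine synthetase (Glul), the defining Müller enzyme, had 3612, 3857 and 3999.8 CPM in the green libraries and 3709, 4330.1 and 4219 CPM in the blue ones (-0.10 ± 0.09), and 5 markers, among them the glutamate transporter Slc1a3 (0.09 ± 0.10), were higher in green. Gja1, the gap junction protein of glia, had 8.07, 12.6 and 11.3 CPM in the green libraries and 16.6, 14.8 and 17.4 CPM in the blue ones, with green lowest and a difference of -0.61 ± 0.16.

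Interferon response and antigen presentation genes were lower in green for 20 of 23, with a median of -0.26, but -0.16 without green library 2. Of these 20, 1 reached an unadjusted p under 0.05 (4.35% against 3.06%). B2m, the light chain of class I molecules, had 23.2, 14.5 and 16.2 CPM in the green libraries and 28.98, 19.4 and 25.2 CPM in the blue ones (-0.45 ± 0.22), with overlap. The list's level was -0.09, -0.31 and -0.25 in the green libraries, 0.19, 0.12 and 0.14 in the blue libraries and -0.01, 0.14 and 0.07 in the white libraries, so green and blue did not overlap. Many of its members were low, and 11 of 23 exceeded 5 CPM on average. Of the microglial markers 9 of 18 were higher. Serpina3, a protease inhibitor of the acute-phase response, had 0.821, 0.888 and 2.34 CPM in the green libraries, 4.42, 4.0 and 5.12 CPM in the blue ones and 1.99, 3.19 and 3.47 CPM in the white ones, with blue high and a difference of -1.74 ± 0.38. Pigment epithelium markers were lower in green for 16 of 21 (median -0.33), 0 of them at an unadjusted p under 0.05, with the wide within-group spread given above. With the mean level of these markers as a covariate, 588 genes in place of 1110 reached an unadjusted p under 0.05. A similar number did so without blue library 3, and the cause of the fall was not tested.

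Of 42 chromatin modifiers 30 were higher in green, 5 at an unadjusted p under 0.05 (11.9% against 4.11%) and 0 lower at that level, with a median of 0.07, but 0.02 without green library 2. These 5 became 3 without green library 2 and 1 with the pigment covariate. Chd2, a chromatin remodeller, had 21.9, 20.3 and 19.1 CPM in the green libraries and 14.2, 16.1 and 14.3 CPM in the blue ones (0.46 ± 0.14), and Kmt2a, a histone methyltransferase, had 251, 252 and 242 CPM in the green libraries and 189, 219.9 and 206 CPM in the blue ones (0.28 ± 0.10). Of the list of splicing factors and transcripts held in the nucleus 22 of 30 were higher in green, 2 at an unadjusted p under 0.05 (6.67% against 4.11%) and 1 lower at that level. Its median was 0.07, but -0.03 without green library 1, where 13 of 30 were higher. Leng8, of that list, had 475, 425 and 494 CPM in the green libraries, 355, 325 and 284 CPM in the blue ones and 347, 319 and 378 CPM in the white ones (0.53 ± 0.10). Circadian genes divided: of 20 tested, 10 were higher. Bhlhe40, a light-responsive repressor, had 71.03, 67.1 and 52.3 CPM in the green libraries and 52.9, 40.6 and 38.3 CPM in the blue ones (0.53 ± 0.15), and Rorb, a nuclear receptor of retina and clock, had 67.1, 55.6 and 44.1 CPM in the green libraries and 36.2, 36.7 and 34.8 CPM in the blue ones (0.63 ± 0.19). The output factors Dbp, with 194, 229 and 203 CPM in the green libraries and 249.5, 250.0 and 241 CPM in the blue ones (-0.24 ± 0.09), and Tef (-0.24 ± 0.09) were lower in green. No source used here gives the hour of sampling. Immediate early genes also divided, 10 of 20 higher, and Nr4a1 had 22.2, 29.9 and 30.3 CPM in the green libraries and 22.3, 15.8 and 14.3 CPM in the blue ones (0.65 ± 0.18). Egr1 had 13.3, 36.5 and 20.2 CPM in the green libraries and 40.3, 14.7 and 14.9 CPM in the blue ones (-0.00051 ± 0.41). Egr1, a known marker of defocus sign in amacrine cells of other species, thus varied more within groups than between them.

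White light was used to see which of the 2 coloured lights stood apart. Both contrasts with white share the white libraries, so each is given for a gene side by side with no measure of likeness between them. Of the 2191 genes whose green and blue libraries did not overlap, 497 (3.21% of tested genes) had only green apart from white, 409 (2.64%) had only blue apart, 1205 (7.79%) had neither apart, 48 (0.310%) had white beyond both, and 32 were fully ordered with white in the middle. Full order ran green, white, blue in 13 genes (0.0840%) and blue, white, green in 19 (0.123%). Among the 30 best-ranked named genes, 14 had only blue apart, 10 only green, 2 neither, and 4 were fully ordered. At an unadjusted p under 0.05, 899 genes differed between green and white (5.81%) and 689 between blue and white (4.45%). The white mean lay in the middle for 865 of the 1110 genes at that level between green and blue (5.59% of tested genes). Within the 1110 genes its share was 77.9%, against 39.0% with the white mean in the middle among all tested genes. Choosing genes for a gap between 2 groups favours that order by itself.

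The fully ordered genes with a known role come from different processes. Besides Asic1, the order green, white, blue held for Sfxn2, a mitochondrial carrier, with 46.9, 45.2 and 46.9 CPM in the green libraries, 34.9, 34.04 and 29.7 CPM in the blue ones and 37.96, 36.9 and 39.3 CPM in the white ones. Its differences from white were 0.28 in green and -0.21 in blue. Pklr, a pyruvate kinase, had 39.3, 39.6 and 38.8 CPM in the green libraries, 31.9, 30.3 and 28.6 CPM in the blue ones and 32.8, 33.4 and 38.3 CPM in the white ones. Jag2, a Notch ligand, had 40.99, 39.1 and 44.6 CPM in the green libraries, 35.4, 35.7 and 32.9 CPM in the blue ones and 37.1, 38.3 and 35.7 CPM in the white ones. Rgs4, a brake on G protein signals, and Fanca, a DNA repair gene, shared this order, with differences of 0.34 ± 0.11 and 0.38 ± 0.10. In the reverse order, S1pr1, a receptor for sphingosine 1-phosphate, had 25.9, 26.1 and 24.3 CPM in the green libraries, 31.6, 40.2 and 33.8 CPM in the blue ones and 30.6, 31.6 and 26.8 CPM in the white ones. Its differences from white were -0.22 in green and 0.25 in blue. Btd, which recycles the vitamin biotin, had 17.3, 16.2 and 17.1 CPM in the green libraries, 22.3, 23.1 and 21.3 CPM in the blue ones and 18.8, 19.8 and 17.5 CPM in the white ones. Hcar1, the lactate receptor, was low: it had 0.103, 0.0623 and 0 CPM in the green libraries, 0.9399, 0.597 and 0.646 CPM in the blue ones and 0.177, 0.13 and 0.354 CPM in the white ones, with 0 counts in green library 3, and was under 1 CPM in every library. Over the 13 genes with green highest the median difference was 0.18 from white in green and -0.20 in blue, and over the 19 with blue highest it was -0.17 and 0.16. The edgeR adjusted p-values of these 32 genes ran from 0.451 to 0.747.

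**Figure D4:**
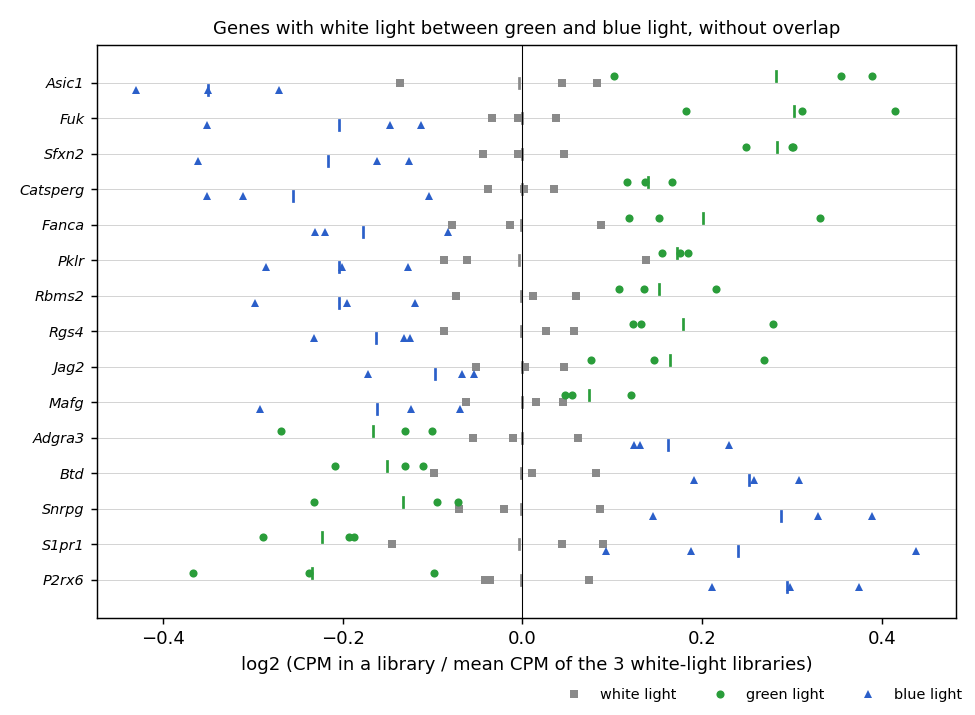
Level of each library relative to the mean of the 3 white libraries (log2 ratio of CPM, horizontal axis) for the named genes (vertical axis) whose green, white and blue libraries are fully ordered, with ticks at group means. In the 10 genes ordered green, white, blue and the 5 ordered blue, white, green, the grey white-light squares lie between the 2 colours, as their choice requires.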

How the data were processed

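Retinal RNA was sequenced in paired-end libraries after Trizol extraction, per the labels' protocols. The authors deposited whole-number counts for 19962 genes in 9 libraries, per the file headers. Aligner, counting tool, strand setting, build and annotation: not given in the sources used here. Reads of overlapping genes or near-identical copies may therefore be shared between genes. Low counts are unevenly spread, so the fit was repeated with counts divided by 4. Of the gene identifiers, 18339 match symbols of the assembly mCavPor4.1, and no coordinates are printed.

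All 9 libraries entered 1 fit in edgeR 4.0.16 (R 4.3.3) with light as the only term. The function filterByExpr (at least 10 counts a library, 15 in total) chose the genes, TMM scaled the libraries, and the quasi-likelihood F test gave the p-values. These were adjusted by Benjamini-Hochberg over 15469 genes, with a threshold of 0.05. Library totals of 62155041 to 74979806 counts let a count of 0 allow up to 0.0483 CPM, which covers counting error only. This limit takes 1 count as 1 read pair, which is not certain. Values of 4 and 8 counts occurred 2014 and 1267 times, and values of 3 and 7 counts 472 and 410 times. Were a count less than 1 read pair, the limit would be higher. No pair of libraries agreed within sampling noise, with a median chi-square per gene of 4.5 or more, so all were kept. The lowest value was for blue libraries 2 and 3, which share an animal number. Likeness of whole libraries did not always follow the light. Green library 1 was nearer blue library 1 (8.4) than green library 2 of the same animal number (12.9) or green library 3 (13.6). The fit was tested on simulated data before use.

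Genes were named by rule. It takes 30 genes with a symbol, at least 1 CPM and no overlap between green and blue, by unadjusted p. It adds 10 and 5 fully ordered genes, up to 4 members of each list by p, and light sensors. Some further list members, such as Slc16a3, are given beside them. The 59 gene lists (20 of cell types, 39 of functions) and the members were chosen with earlier results of these data known. They are described by counts and medians, with no test. Alternatives were DESeq2 1.42.0, limma 3.58.1 voom, other scalings and filters, green and blue alone, counts summed per animal number, 2 covariates, and each library left out. A few genes are not reported here.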

Additional observations from a re-analysis of the deposited data

How the results depend on the processing

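The count of 0 genes called by edgeR became 48 with the DESeq2 Wald test, 1 with the 6 green and blue libraries alone (Mapk8) and 1 with the suffix -B as a covariate (Sema7a). It was 0 under the other scalings and filters, with voom, with counts pooled by animal number, with the pigment covariate, without both -B libraries and with counts divided by 4. Leaving out single libraries gave 0 to 4 calls. These were Eif2s3 without green library 1, and 4 genes, among them C1qtnf1, Ebf1 and Cdh23, without green library 2. LOC101787538 was called without blue library 1, Tub and Pycr3 without blue library 3, and Mapk8 without white library 1. The 1110 genes at an unadjusted p under 0.05 became 588 with the pigment covariate and 590 without blue library 3. The cause was not tested. Over 21 alternatives 32 of 59 list medians kept their sign in each. The Usher median ranged from 0.20 to 0.37. No paired analysis was possible because the labels give no replicate number shared by green and blue, and library numbers follow deposition order. With 2 animal numbers a group, the spread between animals is poorly known, and depth limits only genes of a few counts.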
